A study of Mus musculus with 18 samples.

Results

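Salt balance is regulated by hormones whose precursors, enzymes and receptors are expressed in many tissues, and 8 of the 21899 genes in the expression table belong to the core of these systems by name: *Agt*, *Ace*, *Agtr1a*, *Agtrap*, *Nr3c2*, *Npr1*, *Npr2* and *Npr3*. They were taken by gene symbol, with earlier results of these data known, and each symbol had 1 row. To describe how they are distributed across metabolic tissues and whether a high-salt diet altered them, their levels were read in 18 RNA sequencing libraries from 18-week-old male wild type C57BL/6 mice. The control (CON) mice were given chow and tap water, and the high-salt diet (HSD) mice were given chow with 8% NaCl and 0.9% saline to drink for 12 weeks. Liver, white adipose tissue (the epididymal depot, eWAT) and quadriceps muscle were each represented by 3 CON and 3 HSD libraries, 1 mouse per library, and the codes in the library names place all 18 libraries in 8 mice, 4 of which gave all 3 tissues. Levels are given as FPKM, a fragment count scaled for gene length and library size, so that different genes can be set side by side.

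In the renin-angiotensin system, angiotensinogen (encoded by *Agt*) is cleaved by renin and then by angiotensin-converting enzyme (*Ace*) to angiotensin II, which acts on the type 1 receptor (*Agtr1a* and, at a second locus, *Agtr1b*). The receptor-associated protein encoded by *Agtrap* binds this receptor and promotes its removal from the cell surface. Angiotensin II stimulates the adrenal gland to release aldosterone, the ligand of the mineralocorticoid receptor (*Nr3c2*). The natriuretic peptides oppose this axis: atrial and B-type peptides act through the guanylyl cyclase receptor *Npr1*, the C-type peptide acts through the guanylyl cyclase *Npr2*, and *Npr3* encodes the clearance receptor that removes all of them. Liver is the main source of circulating angiotensinogen, adipose tissue makes it as well, and fat cells are rich in natriuretic peptide receptors.

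On the mouse genome (mm10, GENCODE M21) the protein-coding genes *Agt* (chr8:124556534-124569706) and *Nr3c2* (chr8:76899442-77245012) lie on 1 chromosome, as do *Npr2* (chr4:43631935-43651244) and *Agtrap* (chr4:148077061-148088031). *Ace* (chr11:105967945-105989964), *Agtr1a* (chr13:30336441-30382867), *Npr1* (chr3:90450591-90465866) and *Npr3* (chr15:11839896-11907287) each lie on another. The hormone precursor and its converting enzyme were the members whose promoters held the letters of a TATA box, and the sequences are shown because *Agt* was high in both liver and eWAT while *Ace* was near 0 in liver. Promoter windows of 300 bases, from 250 bases before to 50 bases after a RefSeq transcript start (GRCm38.p6), were found for 7 of the 8 genes, with none for *Agtr1a*. *Ace* has 2 starts. The first gives the somatic enzyme, and the second, inside the gene, gives the shorter enzyme known from male germ cells. Gene-level FPKM does not separate them. Capitals mark TATAAA on either strand in the first 2 windows and TGAGGTCA, a cyclic AMP response element-like octamer, in the third. The windows are chr8:124569657-124569956 (minus strand), chr11:105967698-105967997 (plus strand) and chr11:105974939-105975238 (plus strand).
Agt promoter: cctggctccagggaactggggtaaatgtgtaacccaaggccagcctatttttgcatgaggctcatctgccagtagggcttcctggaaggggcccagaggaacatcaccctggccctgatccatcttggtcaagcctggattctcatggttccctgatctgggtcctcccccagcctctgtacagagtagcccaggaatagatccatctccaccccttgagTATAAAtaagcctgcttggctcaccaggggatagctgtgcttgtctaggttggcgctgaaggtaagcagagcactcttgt
Ace somatic promoter: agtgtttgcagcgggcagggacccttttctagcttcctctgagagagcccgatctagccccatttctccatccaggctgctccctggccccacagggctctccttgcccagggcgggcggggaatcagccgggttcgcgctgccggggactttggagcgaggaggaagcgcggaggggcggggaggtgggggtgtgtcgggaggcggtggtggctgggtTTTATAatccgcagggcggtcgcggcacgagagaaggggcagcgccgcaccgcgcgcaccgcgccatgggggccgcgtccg
Ace internal promoter: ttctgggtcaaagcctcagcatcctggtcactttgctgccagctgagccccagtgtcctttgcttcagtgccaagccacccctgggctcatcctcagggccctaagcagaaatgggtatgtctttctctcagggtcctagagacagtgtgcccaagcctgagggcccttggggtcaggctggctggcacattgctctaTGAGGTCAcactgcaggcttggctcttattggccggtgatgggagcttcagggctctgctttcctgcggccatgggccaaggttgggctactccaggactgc
TATAAA began 30 bases before the start of *Agt*, and its reverse complement began 31 bases before the somatic start of *Ace*. TATAAA was present, on either strand, in 13.6% of the 32851 promoters in the same table, so the match is a description of the sequence only. The octamer began 52 bases before the internal *Ace* start and was present in 2.17% of promoters. The palindromic steroid receptor element, a pair of AGAACA half-sites facing each other, was found in none of the members' windows and in 3 promoters overall. A single AGAACA, on either strand, was present in the *Npr3* window and in 19.0% of promoters.

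Libraries held 7628071 to 16637489 fragments in genes, as recovered from the FPKM steps, and mitochondrially encoded genes took 15.4 to 60.8% of them in liver, against 3.52 to 5.11% in eWAT and 11.3 to 16.5% in muscle. Hepatocyte, adipocyte and skeletal muscle marker lists were each highest in the tissue they define. Several libraries stood apart in markers of other tissue. The CON liver library CON16L had a summed level of 13 skeletal muscle markers of 5001 FPKM, against 2.63 to 7.26 FPKM in the other 5 liver libraries. Its adipocyte markers summed to 127 FPKM, against 16.2 to 30.2 FPKM, and its mural smooth muscle markers to 131 FPKM, against 5.39 to 19.8 FPKM. The HSD eWAT library HS3W had a summed level of 18 epididymal epithelium markers of 27485 FPKM, against 1.28 to 14.97 FPKM in the other 5 eWAT libraries, and 0.367 times the adipocyte marker level of those 5. Male germ cell markers summed to 668 FPKM in HS2W and 332 FPKM in HS3W, against 3.46 to 61.8 FPKM in the other 4 eWAT libraries. *Ace* was at 29.5 FPKM in HS2W and 26.9 FPKM in HS3W, within the CON eWAT range of 23.4 to 34.5 FPKM. The part of germ cell RNA in these *Ace* levels was not tested. Blood markers were highest in the 3 libraries of mouse CON16, at 5626 FPKM in liver, 5667 in eWAT and 965 in muscle, against 237 to 842, 243 to 744 and 124 to 224 FPKM in the other libraries of these tissues. In bulk tissue, fewer cells of a type and less RNA per cell cannot be told apart.

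To understand where each component is expressed, the CON libraries of the 3 tissues were compared. *Agt* was high in both liver and eWAT and low in muscle. *Npr3*, *Npr1*, *Ace* and *Agtrap* were highest in eWAT and lowest in liver. In CON eWAT the order of mean levels was *Agt* at 186 ± 20.8 FPKM (SD, n = 3 here and below), *Npr3* at 117 ± 24.8, *Ace* at 28.9 ± 5.57, *Npr2* at 26.2 ± 1.28, *Npr1* at 19.1 ± 1.63, *Agtr1a* at 8.99 ± 0.518, *Agtrap* at 6.93 ± 1.33 and *Nr3c2* at 3.10 ± 0.247, and among neighbours the library values of *Ace* and *Npr2* overlapped. In CON liver *Agt* was followed by *Npr2* at 27.4 ± 9.03 FPKM and *Agtr1a* at 11.1 ± 1.04 FPKM, and the other 5 genes averaged 0.207 to 1.42 FPKM with library values that overlapped between neighbours. In CON muscle *Npr2* led at 11.5 ± 1.495 FPKM, followed by *Ace* at 7.75 ± 0.743 and *Agt* at 7.70 ± 0.490, whose values overlapped. Differences were tested with limma on log2(FPKM + 0.5) over all genes, a scale that understates the change of low genes, and were called where the Benjamini-Hochberg adjusted p was under 0.05 and the log2 difference was at least 1. Tissue differences are common by this rule: 69.4% of 12637 genes were called between liver and eWAT, 50.1% between liver and muscle, and 54.9% between eWAT and muscle. Of the 8 members, 5, 7 and 7 were called in these comparisons.

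**Figure D1:**
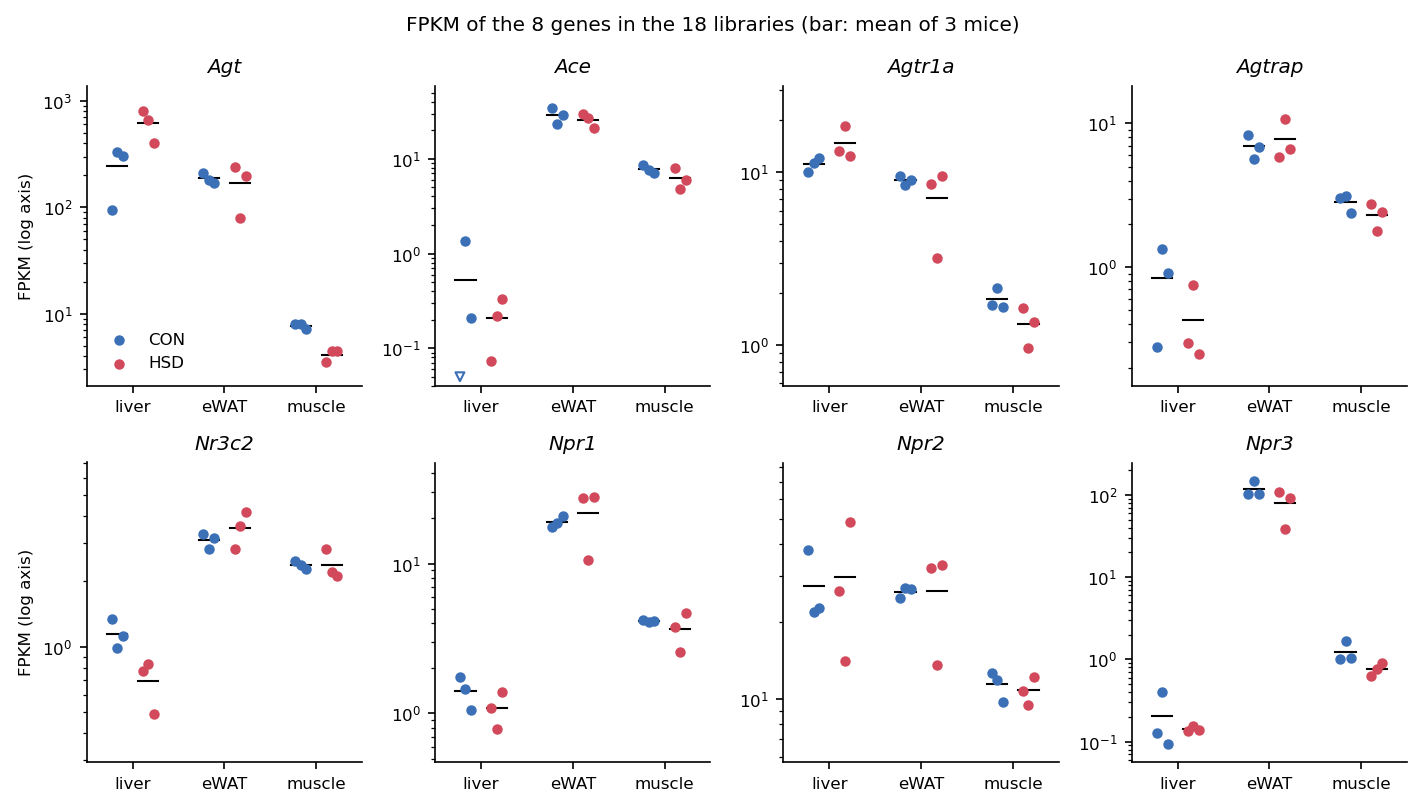
FPKM (log axis, its range set per gene) of the 8 genes in the 18 libraries by tissue, with CON in blue, HSD in red and a bar at the mean of 3 mice. The open triangle at the lower edge is CON liver library CON14L, where *Ace* is listed at 0. *Agt* in HSD liver lies between 403 and 811 FPKM, above the CON range of 94.6 to 329, *Agt* in HSD muscle lies below CON, and the lowest HSD eWAT point of *Agt*, *Agtr1a*, *Npr1*, *Npr2* and *Npr3* is the library HS3W.

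*Agt*, the precursor of all angiotensins, was read at 94.6, 329 and 304 FPKM in the CON liver libraries, at 209, 182 and 168 FPKM in CON eWAT and at 7.98, 7.99 and 7.14 FPKM in CON muscle. The values of liver and eWAT overlapped through CON14L, the library with the highest mitochondrial share, and those of muscle lay far below both. With mitochondrial genes left out of the total, *Agt* was 241, 444 and 490 FPKM in CON liver and 218, 190 and 176 FPKM in CON eWAT, without overlap. Mean *Agt* was 31.5 times higher in liver than in muscle (log2 difference 4.70 ± 0.43 SE, adjusted p = 1.33e-05, limma) and 24.2 times higher in eWAT than in muscle (4.51 ± 0.43, adjusted p = 1.55e-05, limma). Between liver and eWAT the difference was 0.19 ± 0.43 (adjusted p = 0.692, limma). The eWAT level was 76.8% of the liver level, while the summed level of 14 hepatocyte markers in CON eWAT was 2.38% of that in CON liver.

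*Ace*, which converts angiotensin I to angiotensin II and is abundant on endothelium, was read at 34.5, 23.4 and 28.8 FPKM in CON eWAT and at 8.55, 7.60 and 7.09 FPKM in CON muscle. In CON liver it was listed at 0 in CON14L and at 0.207 FPKM in CON72L. It was 1.37 FPKM in CON16L, the library with skeletal muscle, mural smooth muscle and adipocyte markers. *Ace* was lower in liver than in eWAT (log2 difference -5.06 ± 0.41, adjusted p = 3.16e-06, limma) and lower than in muscle (-3.24 ± 0.41, adjusted p = 9.66e-05, limma). Without CON16L the liver and eWAT values differed by -5.61 on that scale. *Ace* was 3.73 times higher in eWAT than in muscle (1.82 ± 0.41, adjusted p = 0.00304, limma). A list of 12 endothelial markers summed to 560 to 652 FPKM in CON eWAT, 113 to 133 FPKM in CON muscle and 25.9 to 53.9 FPKM in CON liver, in the same order as *Ace*; the part of cell makeup in the difference was not tested.

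The receptor *Agtr1a* followed *Agt* rather than *Ace* in its order over tissues. Its levels were 10.02, 11.3 and 12.1 FPKM in CON liver, 9.51, 8.48 and 8.97 FPKM in CON eWAT and 1.71, 2.15 and 1.67 FPKM in CON muscle. Muscle lay below both other tissues, by 2.32 ± 0.14 on the log2 scale against liver (adjusted p = 1.15e-06, limma) and by 2.02 ± 0.14 against eWAT (adjusted p = 2.43e-06, limma). Liver exceeded eWAT in all 3 libraries, by a difference of 0.29 ± 0.14 that did not pass the test (adjusted p = 0.0773, limma). *Agtrap*, whose product draws the receptor into the cell, had the reverse order of *Agtr1a* for liver: it was 8.25 times higher in eWAT than in liver and 2.44 times higher in eWAT than in muscle, and both differences were called (adjusted p = 2.85e-05 and 0.00578, limma). The liver *Agtrap* values of 0.279, 1.34 and 0.903 FPKM varied widely, with CON16L the highest.

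*Nr3c2*, the receptor for aldosterone that also binds corticosterone, was at a low level in each tissue. It was read at 1.34, 0.983 and 1.11 FPKM in CON liver, at 3.29, 2.82 and 3.18 FPKM in CON eWAT and at 2.48, 2.37 and 2.29 FPKM in CON muscle. Liver had the lowest levels and eWAT the highest, with no overlap between tissues. The liver level was 0.369 times that of eWAT (log2 difference -1.13 ± 0.12, adjusted p = 2.12e-05, limma), and eWAT and muscle differed by 0.32 ± 0.12 (adjusted p = 0.0412, limma), short of the fold threshold.

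Of the natriuretic receptors, *Npr3* and *Npr1* were highest in eWAT, and *Npr2* was not. *Npr3*, the clearance receptor, was read at 102.5, 145.6 and 102.7 FPKM in CON eWAT, at 1.00, 1.68 and 1.03 FPKM in CON muscle and at 0.126, 0.403 and 0.0931 FPKM in CON liver, where all 6 libraries held only 8 to 44 fragments of it. Its mean was 94.4 times higher in eWAT than in muscle (log2 difference 6.08 ± 0.23, adjusted p = 1.38e-07, limma) and 564 times higher than in liver (adjusted p = 2.71e-08, limma). The highest liver value was that of CON16L, and without it the ratio to liver was 1069. *Npr1*, the receptor for the atrial and B-type peptides, was read at 17.7, 18.7 and 20.8 FPKM in CON eWAT, at 4.197, 4.08 and 4.15 FPKM in CON muscle and at 1.75, 1.46 and 1.05 FPKM in CON liver. Its eWAT level was 4.60 times that of muscle (2.07 ± 0.16, adjusted p = 4.13e-06, limma) and 13.4 times that of liver (adjusted p = 1.53e-07, limma). *Npr2*, the C-type receptor, had another pattern, with 37.9, 21.9 and 22.6 FPKM in CON liver, 24.7, 27.1 and 26.7 FPKM in CON eWAT and 12.7, 11.9 and 9.79 FPKM in CON muscle. Liver and eWAT overlapped (0.02 ± 0.23, adjusted p = 0.935, limma), and muscle was lower than either (adjusted p = 0.00130 and 0.00137, limma).

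These differences depend in part on how the tissues are scaled to each other, since the median of all genes was lower in liver than in eWAT by 1.36 on the log2 scale, lower in liver than in muscle by 0.52 and higher in eWAT than in muscle by 0.93. Median-ratio scaling moved the 3 medians to 0.03, -0.08 and 0.07. After that scaling, *Npr3*, *Npr1*, *Ace* and *Agtrap* were still called lower in liver than in eWAT, and *Agt*, *Agtr1a*, *Npr1* and *Npr3* still called higher in eWAT than in muscle. *Agt*, *Agtr1a* and *Npr2* became higher in liver than in eWAT, at 1.85, 1.87 and 1.65 (adjusted p = 0.00307, 5.63e-06 and 0.000457, limma). The liver and eWAT difference of *Nr3c2* turned from -1.13 to 0.17, and its eWAT and muscle difference from 0.32 to -0.52. The excess of eWAT over muscle for *Ace*, *Npr2* and *Agtrap* was 0.83, 0.17 and 0.22, and was no longer called. The HSD libraries, which took no part in these comparisons, gave the same direction for all 8 genes in all 3 comparisons, with *Agt* and *Agtr1a* called higher in liver than in eWAT at 1.96 and 1.11 (adjusted p = 0.00213 and 0.0191, limma). Without HS3W these were 1.48 and 0.65 (adjusted p = 0.00297 and 0.0286, limma), so *Agtr1a* was no longer called, and *Npr2* turned from 0.10 to -0.31.

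**Figure D2:**
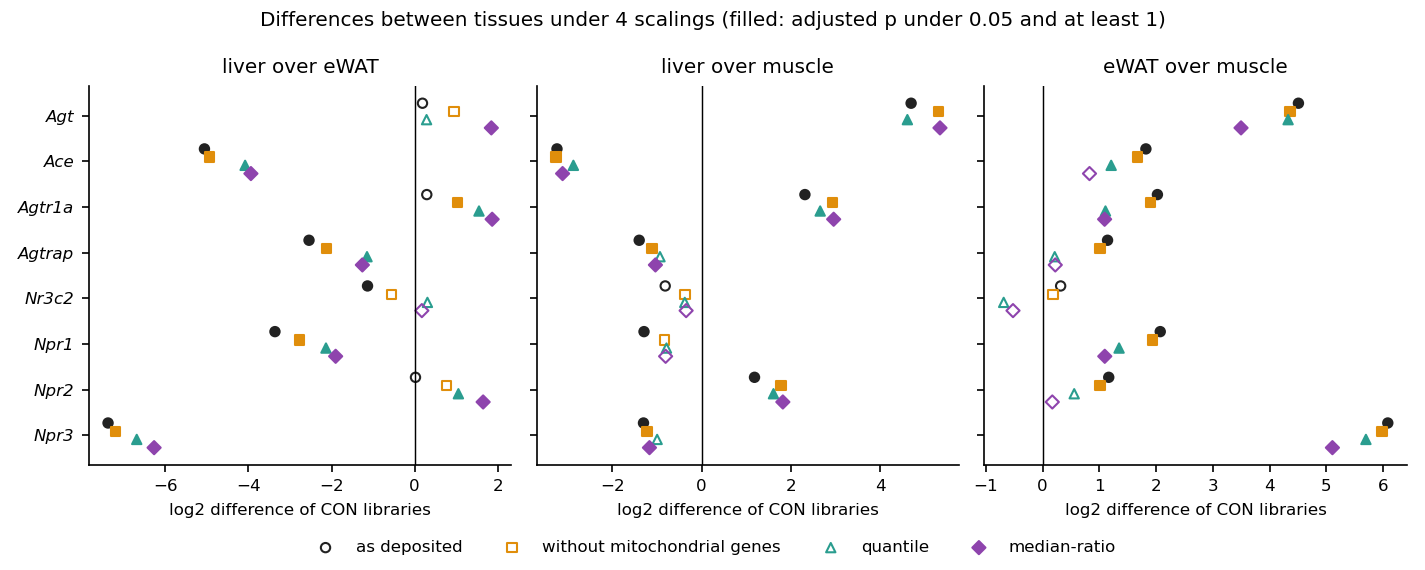
Log2 differences between tissues in the CON libraries (3 against 3, limma) for the 8 genes as deposited, with mitochondrial genes left out of the total, after quantile normalization and after median-ratio scaling, with filled symbols for an adjusted p under 0.05 and a difference of at least 1. *Npr3* stays near -7 or -6 for liver over eWAT and between 5.10 and 6.08 for eWAT over muscle, while *Nr3c2* lies on both sides of 0.

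To examine the response to salt, HSD and CON libraries were compared within each tissue. No member was called as a differentially expressed gene (DEG) in any tissue. In liver 0% of 10317 genes were called (592 genes, 5.74%, had an unadjusted p under 0.05), in eWAT 0% of 13740 genes (2298 genes, 16.7%) and in muscle 0.323% of 10834 genes. A count of 0, among 6 members tested in liver and 8 each in eWAT and muscle, is what the background gives. In muscle 35 genes were called, and 54 with the replicate number as a block. With other fits, the count of called genes in liver was 41 with all tissues in 1 model and 926 with library weights, and in eWAT 161 and 220. A comparison of 3 with 3 libraries cannot give an exact permutation p under 0.1. At an adjusted p under 0.05 alone, 1 member passed, *Agt* in muscle, where 0.895% of genes did, and 2.64% with the replicate block, under which *Agt* was again the 1 member that passed (adjusted p = 0.0199, limma). Values of HSD and CON did not overlap for 3 of the 6 members tested in liver (*Agt*, *Agtr1a*, *Nr3c2*), where this held for 12.1% of genes tested. They did not overlap for 3 of 8 in muscle (*Agt*, *Agtr1a*, *Npr3*), where this held for 22.3%, and for none of 8 in eWAT, where it held for 28.6%.

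**Figure D3:**
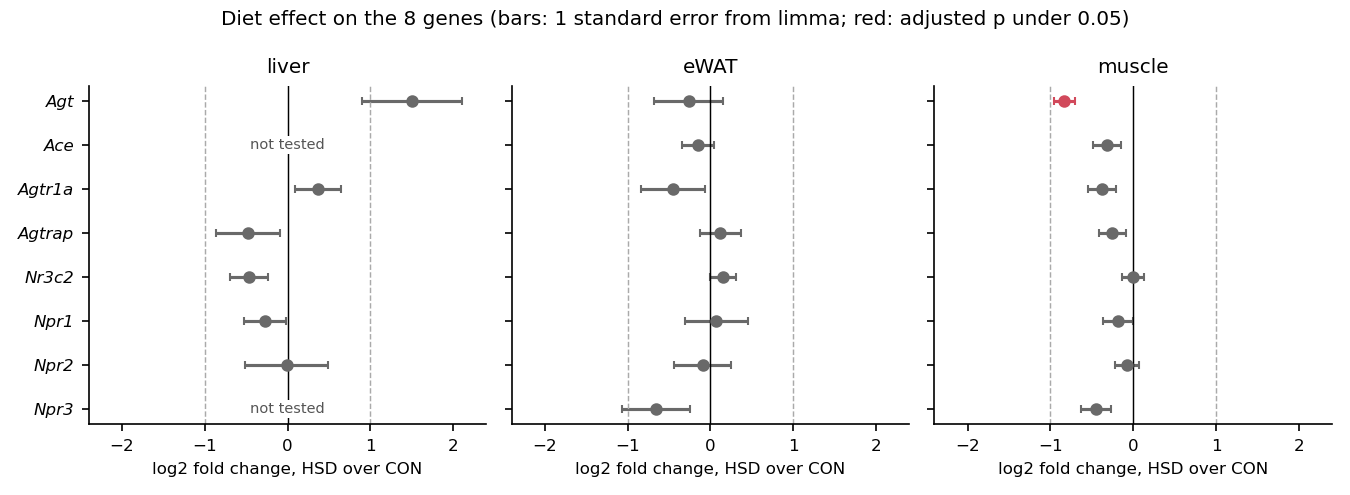
Log2 fold change of HSD over CON with 1 standard error (limma, 3 against 3 libraries) for the 8 genes in each tissue, with dashed lines at the fold threshold and red for an adjusted p under 0.05. *Agt* sits at 1.502 in liver and at -0.83 in muscle, the only red point. *Ace* and *Npr3* were not tested in liver, where their mean was under 0.5 FPKM.

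In liver, *Agt* was read at 811, 664 and 403 FPKM in the HSD libraries HS2L, HS4L and HS5L, against 94.6, 329 and 304 FPKM in CON14L, CON16L and CON72L. All 3 HSD values lay above all 3 CON values. The mean was 2.58 times higher in HSD, with a log2 fold change of 1.502 ± 0.61 (adjusted p = 0.764, limma), which did not pass the test. The mitochondrial share of fragments was 60.8, 25.7 and 37.8% in these CON libraries and 16.3, 15.4 and 44.4% in the HSD libraries, so that the lowest *Agt* value and the highest mitochondrial share were both in CON14L. With mitochondrial genes left out of the total, *Agt* was 241, 444 and 490 FPKM in CON and 969, 784 and 724 FPKM in HSD, still without overlap, and the fold change was 1.13 ± 0.35 (adjusted p = 0.901, limma). The summed hepatocyte markers were 17917, 85345 and 68164 FPKM in CON and 91920, 92994 and 41509 FPKM in HSD. They were lowest in CON14L, as *Agt* was, but overlapped between the diets, with HS5L below CON16L and CON72L. Their part in the *Agt* difference was not tested. Leaving out CON14L gave 0.92, and leaving out CON16L gave 1.82. Library weights were the only alternative in which *Agt* was called (1.44, adjusted p = 8.95e-05, limma). In that fit 926 of 10317 genes were called and 7123 had an adjusted p under 0.05.

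The other liver members differed less. *Agtr1a* was 13.2, 18.5 and 12.4 FPKM in HSD against 10.02, 11.3 and 12.1 FPKM in CON, a separation without overlap but by a small margin (0.37 ± 0.28, adjusted p = 0.764, limma). When mitochondrial genes were left out, the *Agtr1a* values of the groups overlapped. *Nr3c2* was 0.771, 0.833 and 0.488 FPKM in HSD, all below the CON values of 1.34, 0.983 and 1.11 FPKM (-0.46 ± 0.23, adjusted p = 0.764, limma), at depths of 27 to 74 fragments. *Npr2* ranged from 14.1 to 48.9 FPKM in HSD and from 21.9 to 37.9 FPKM in CON, and *Npr1* and *Agtrap* overlapped between the diets as well. *Ace* and *Npr3* did not exceed 0.332 and 0.154 FPKM in the liver libraries other than CON16L, where they were 1.37 and 0.403 FPKM.

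In muscle, *Agt* was lower in HSD. It was read at 3.50, 4.44 and 4.43 FPKM in HS2M, HS3M and HS5M, against 7.98, 7.99 and 7.14 FPKM in CON16M, CON71M and CON72M. No HSD value came near the CON values, and the mean was 0.535 times that of CON (log2 fold change -0.83 ± 0.13, adjusted p = 0.0266, limma), short of the fold threshold of a DEG. These values rest on 88 to 200 fragments per library. The adjusted p stayed under 0.05 without HS2M (0.0259), and was 0.1002, 0.0916 and 0.0894 without CON16M, CON71M and CON72M and 0.0599 and 0.0712 without HS3M and HS5M, with fold changes of -0.88 to -0.73 throughout. It was 0.0757 with no filter on low FPKM and 1 with all tissues in 1 fit, where the variance is shared with liver. Of the markers of other cells, 12 adipocyte markers summed to 386 to 527 FPKM in CON and 363 to 547 FPKM in HSD muscle, with overlap. The 9 fibroblast markers summed to 142 to 190 FPKM in CON and 124 to 134 FPKM in HSD, and the 9 macrophage markers to 38.0 to 67.3 FPKM in CON and 30.7 to 35.1 FPKM in HSD, so both lists were lower in HSD without overlap, as *Agt* was. The 14 hepatocyte markers summed to 9.65 to 57.8 FPKM in CON and 20.1 to 65.0 FPKM in HSD. The part of cell makeup in the *Agt* difference was not tested.

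All 8 members had a negative muscle fold change as deposited, with a median of -0.29 against -0.06 over all genes tested, but *Nr3c2* turned to 0.065 and *Npr2* to 0.0077 with median-ratio scaling, and *Nr3c2* to 0.11 with quantile normalization. *Npr3* was 0.624, 0.755 and 0.901 FPKM in HSD against 1.00, 1.68 and 1.03 FPKM in CON (-0.45 ± 0.18, adjusted p = 0.265, limma). *Agtr1a* was 1.64, 0.967 and 1.36 FPKM in HSD against 1.71, 2.15 and 1.67 FPKM in CON (-0.37 ± 0.17, adjusted p = 0.312, limma). Both were separated without overlap, and neither passed the test. *Ace* was 7.90, 4.79 and 5.93 FPKM in HSD against 8.55, 7.60 and 7.09 FPKM in CON, with overlap. *Npr1*, *Npr2*, *Agtrap* and *Nr3c2* overlapped as well, and *Nr3c2* averaged 2.38 FPKM in both diets.

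**Figure D4:**
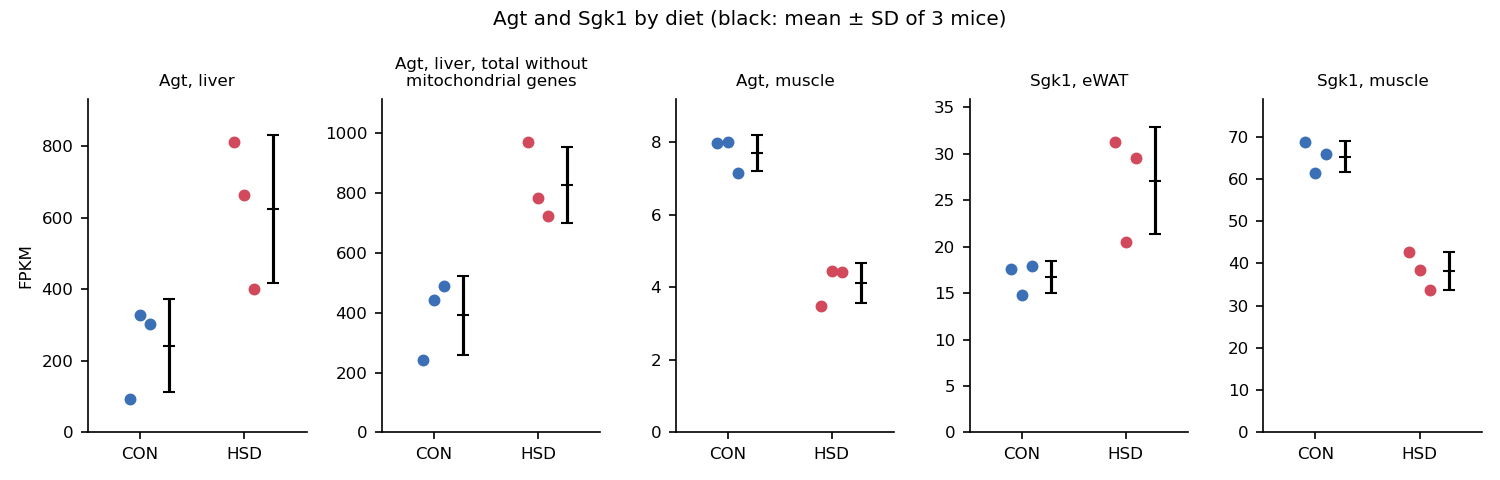
FPKM of *Agt* in liver as deposited and with mitochondrial genes left out of the total, of *Agt* in muscle, and of *Sgk1* in eWAT and muscle, each on its own axis from 0, with points for the 3 libraries of each diet and black bars for the mean ± SD. HSD points lie above CON in both liver panels and in the eWAT panel and below CON in both muscle panels.

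In eWAT the diets could not be separated for any member, and 1 library decided most of the values. In HS3W, the library with epididymal epithelium markers, *Npr3*, *Agtr1a*, *Agt*, *Npr1* and *Npr2* were at 0.353, 0.353, 0.400, 0.468 and 0.471 times the mean of the other 5 eWAT libraries, beside 0.367 for the adipocyte list and 0.387 for the endothelial list. *Ace*, *Nr3c2* and *Agtrap* in HS3W were at 0.977, 1.11 and 1.61 times that mean, and the mural smooth muscle and mesothelial lists were at 3.18 and 3.88. The adjusted p of the members ranged from 0.440 to 0.925 (limma), and the fold change lowest in value was that of *Npr3*, at -0.66 ± 0.41, from 107.2, 38.9 and 92.8 FPKM in HSD and 102.5, 145.6 and 102.7 FPKM in CON. Without HS3W, *Npr3* was at -0.21, *Agtr1a* at 0.01, *Agt* at 0.21 and *Npr2* at 0.32. *Npr1* was then 27.2 and 27.8 FPKM in the 2 HSD libraries, against 17.7, 18.7 and 20.8 FPKM in CON, a fold change of 0.52 ± 0.09 with an adjusted p of 0.0325 (limma). In that fit 7.43% of 13245 genes had an adjusted p under 0.05, and 1.21% were called with the fold threshold, none of them a member.

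**Figure D5:**
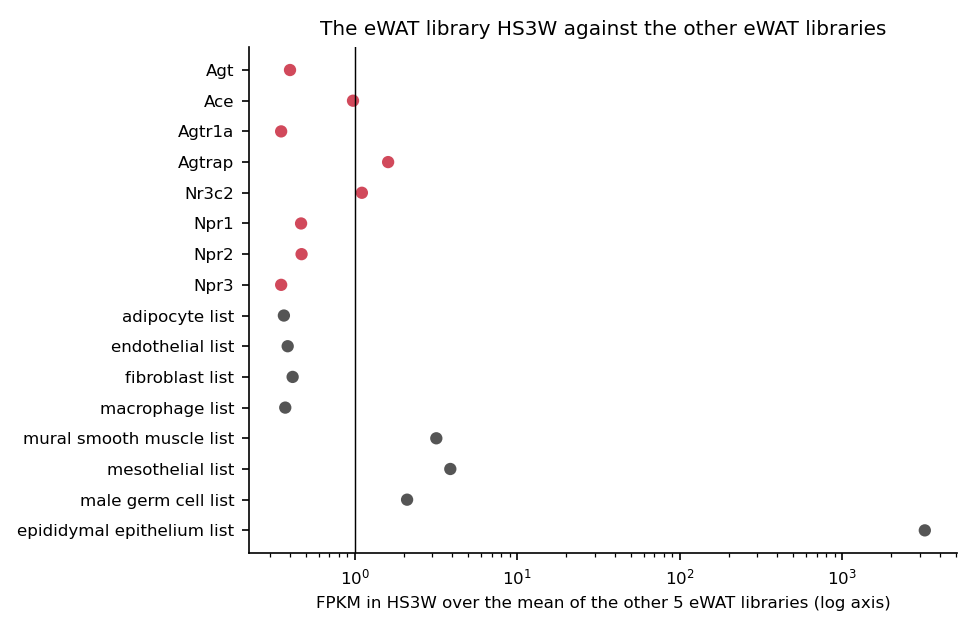
Level in the HSD eWAT library HS3W divided by the mean of the other 5 eWAT libraries (log axis), with red points for the 8 genes and grey points for the summed FPKM of marker lists. *Npr3*, *Agtr1a*, *Agt*, *Npr1* and *Npr2* lie between 0.353 and 0.471, beside the adipocyte, endothelial, fibroblast and macrophage lists. The mural smooth muscle, mesothelial and male germ cell lists lie at 3.18, 3.88 and 2.10, and the epididymal epithelium list lies at 3227.

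A ratio of 2 genes within a library does not depend on library scaling, and the ratio of the clearance receptor *Npr3* to the signalling receptor *Npr1* was therefore computed, a choice made after the values were seen. In eWAT it was 5.81, 7.78 and 4.92 in CON and 3.94, 3.70 and 3.34 in HSD, with HS3W at 3.70 between the other 2 HSD libraries. The groups did not overlap, at a mean of 6.17 ± 1.46 in CON and 3.66 ± 0.304 in HSD (SD, n = 3). The exact two-sided permutation test gave p = 0.1, the smallest value it allows for 3 against 3, and 0.3 after Benjamini-Hochberg adjustment over the 3 tissues. In muscle the ratio was 0.300 ± 0.0975 in CON and 0.217 ± 0.0673 in HSD (SD, n = 3, exact permutation p = 0.3), and in liver 0.146 ± 0.114 and 0.139 ± 0.0508 (exact permutation p = 0.9), with overlap in both. *Npr3* thus exceeded *Npr1* in every eWAT library and was below it in every liver and muscle library.

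To ask whether the diet effect differed between tissues, the effects were compared in 1 fit of the 18 libraries, in which 0.758% of 13067 genes were called between liver and eWAT, 0.0612% between liver and muscle and 0% between eWAT and muscle. No member was called. The largest member difference was that of *Agt*, whose effect was higher in liver than in muscle by 2.33 ± 0.64 on the log2 scale (adjusted p = 0.278, limma) and higher in liver than in eWAT by 1.77 ± 0.64 (adjusted p = 0.240, limma). For *Nr3c2* the liver effect was below the eWAT effect by 0.61 (log2 difference -0.61 ± 0.22, adjusted p = 0.2503, limma). The tissues share mice and the comparisons share libraries. Over the 15 libraries in the study's list of sequencing quality, 1 member, *Agt*, was called for liver against eWAT and for liver against muscle, at 2.54 and 2.94, where 18.7% and 9.78% of 13149 genes were called. Between eWAT and muscle no member was called in these libraries, where 1.29% of genes were. For liver, the 15 libraries hold CON14L and CON72L of CON and HS2L and HS4L of HSD. Their mitochondrial shares were 60.8 and 37.8% in CON and 16.3 and 15.4% in HSD, without overlap. The part of this share in the *Agt* calls was not tested.

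The remaining genes of these hormone systems were followed in 4 lists with 51 genes in all, chosen by function. None was called for diet in any tissue, beside the shares of all genes given above. At an adjusted p under 0.05 alone, 1 passed in muscle (*Sgk1*) and none passed in liver or eWAT. Of the genes tested, 24 were higher and 9 lower in HSD liver (median log2 fold change 0.19, against 0.13 over all genes), 17 higher and 21 lower in HSD eWAT (-0.05 against 0.08) and 17 higher and 20 lower in HSD muscle (-0.02 against -0.06). Values of HSD and CON did not overlap for 4 of 33 listed genes tested in liver, 10 of 38 in eWAT and 10 of 37 in muscle. Over all genes tested this held for 12.1, 28.6 and 22.3%.

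Among the angiotensin-generating and degrading enzymes, 12 genes, transcripts for renin (*Ren1*) were listed at 0 in every liver library and at 0 to 0.0510 FPKM in muscle, and reached 0.358 to 1.66 FPKM in eWAT, on 9 to 42 fragments. *Enpep*, the aminopeptidase that makes angiotensin III, was 46.9, 58.9 and 65.6 FPKM in CON eWAT and 36.5, 14.4 and 43.3 FPKM in HSD eWAT, with no overlap (-0.98 ± 0.42, adjusted p = 0.316, limma), and at -0.50 without HS3W (adjusted p = 0.107, limma). *Ctsd*, the lysosomal protease cathepsin D, was 162, 180 and 176 FPKM in CON eWAT and 102.1, 89.4 and 101.6 FPKM in HSD eWAT, and HS3W did not stand apart in it (-0.82 ± 0.12, adjusted p = 0.114, limma). Without HS3W its adjusted p was 0.0212 (limma), in a fit where 7.43% of 13245 genes had an adjusted p under 0.05. The summed macrophage markers also moved with *Ctsd*, at 376 to 576 FPKM in CON eWAT and 154 to 345 FPKM in HSD eWAT, without overlap. Their part in the *Ctsd* difference was not tested.

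Of the 14 genes for other angiotensin receptors and their signalling partners, *Agtr1b* reached 0.53 FPKM at most, in eWAT, and *Agtr2* 0.07 FPKM, so *Agtr1a* was the main angiotensin II receptor transcript in each tissue. *Gna12*, a G protein alpha subunit, was 34.7, 47.5 and 31.1 FPKM in HSD liver and 15.9, 22.1 and 19.97 FPKM in CON liver, without overlap (0.94 ± 0.32, adjusted p = 0.764, limma). *Rgs2*, which limits signalling by the receptor, was 9.54, 9.28 and 7.40 FPKM in HSD eWAT and 6.40, 4.38 and 6.25 FPKM in CON eWAT (0.59 ± 0.18, adjusted p = 0.214, limma). *Arap1*, which promotes transport of the type 1 receptor to the cell surface, was at -0.37 ± 0.15 in muscle (adjusted p = 0.269, limma).

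The mineralocorticoid list of 12 genes held the gene nearest to a call. *Sgk1*, a kinase induced by aldosterone and by glucocorticoids, was 68.7, 61.4 and 65.9 FPKM in CON muscle and 42.7, 38.5 and 33.7 FPKM in HSD muscle. The groups lay far apart (-0.77 ± 0.13, adjusted p = 0.0334, limma), at a fold below the threshold, and the adjusted p was 0.0181 without HS2M, 0.0882 to 0.135 without any other 1 of the 6 muscle libraries, 0.0611 with median-ratio scaling, 0.0757 with no filter on low FPKM and 1 with all tissues in 1 fit (limma). In eWAT *Sgk1* was in the other direction, at 31.2, 20.5 and 29.6 FPKM in HSD and 17.6, 14.8 and 18.0 FPKM in CON, without overlap (0.66 ± 0.18, adjusted p = 0.198, limma). The lowest HSD value was that of HS3W, and without it the fold change was 0.84 (adjusted p = 0.0227, limma). In eWAT without HS3W, 7.43% of all genes tested had an adjusted p under 0.05. The list had no common direction in muscle, where 4 genes were higher and 5 lower in HSD. Of the other genes that respond to steroid receptors, *Fkbp5* was 7.24, 6.35 and 5.49 FPKM in HSD against 4.37, 3.94 and 3.64 FPKM in CON (0.61 ± 0.13, adjusted p = 0.0758, limma), *Zbtb16* was at 0.53 ± 0.23 (adjusted p = 0.300, limma), and *Tsc22d3*, *Errfi1* and *Nedd4l* were at -0.081, -0.12 and -0.17. In eWAT *Ndrg2* was 65.6, 38.2 and 61.1 FPKM in HSD against 97.6, 95.8 and 81.9 FPKM in CON (-0.77 ± 0.23, adjusted p = 0.207, limma), and at -0.53 without HS3W (adjusted p = 0.0389, limma). The aldosterone and corticosterone synthases of the adrenal gland, *Cyp11b2* and *Cyp11b1*, were listed at 0 in all 18 libraries. *Hsd11b2*, the enzyme that protects the mineralocorticoid receptor from corticosterone, did not exceed 0.66 FPKM in any library, while *Hsd11b1*, which regenerates corticosterone, ranged from 52.5 to 242 FPKM in liver and from 12.4 to 53.4 FPKM in eWAT. In eWAT *Hsd11b1* was 31.6, 12.4 and 35.8 FPKM in HSD and 53.4, 46.5 and 43.1 FPKM in CON (-0.96 ± 0.40, adjusted p = 0.307, limma), lowest in HS3W, and at -0.49 without it (adjusted p = 0.0575, limma).

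In the natriuretic list of 13 genes, the ligands other than *Ostn* were nearly absent from these tissues. *Nppa* and *Nppb*, the heart-derived atrial and B-type peptides, did not exceed 0.21 FPKM. *Nppc*, the C-type peptide, reached 0.73 FPKM in muscle, and *Ostn*, a muscle-derived ligand of the clearance receptor, ranged from 2.72 to 4.76 FPKM in muscle and overlapped between diets. Downstream of the receptors, *Prkg1*, the cyclic GMP-dependent kinase, was 3.49, 2.70 and 2.02 FPKM in HSD muscle and 3.45, 6.20 and 3.60 FPKM in CON muscle (-0.59 ± 0.23, adjusted p = 0.2496, limma). *Vasp*, a substrate of that kinase, was 8.87, 8.62 and 14.1 FPKM in HSD muscle and 14.9, 13.2 and 16.1 FPKM in CON muscle (-0.49 ± 0.18, adjusted p = 0.229, limma).

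The genes whose pattern over the 18 libraries was most like each member were found by Pearson's r on log2(FPKM + 0.5) among 13067 genes, as a description dominated by tissue, since the points share 3 tissues and 8 mice. *Agt* was nearest to *Aldh9a1*, *Apoe* and *Cyb5a* (r = 0.992, 0.991 and 0.989). *Agtr1a* was nearest to the complement genes *C1ra* and *C3* (r = 0.981 and 0.979). *Ace* was nearest to *Plxdc2* (r = 0.992), *Agtrap* to *Snrnp40* (r = 0.986), *Nr3c2* to *Asb3* (r = 0.968) and *Npr2* to *Scarf1* (r = 0.940), the weakest match of the 8. *Npr1* was nearest to *Shank3* (r = 0.996) and *Npr3* to *A530016L24Rik*, *Slc24a3* and *Apcdd1* (r = 0.998, 0.997 and 0.997).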

How the data were processed

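RNA was extracted with TRIzol from flash-frozen liver, WAT and muscle, and stranded total RNA libraries were sequenced in pairs. According to the methods, reads were trimmed with cutadapt, aligned to mm10 with hisat2, and turned into gene-level FPKM with cuffdiff; the submitters' processing notes name HISAT2, HTSeq 0.9.1, mm9 and mm10. The authors deposited 1 table of FPKM for 21899 genes and 18 libraries. The Ensembl release behind it is not given in the sources used here. A batch-effect correction of normalized counts is mentioned in the study, and whether it touched these FPKM is not stated.

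Whole fragments were recovered from the FPKM steps with GENCODE M21 exon lengths (within 0.02 of a whole number in all libraries for 18343 of the 18822 detected genes, 97.5%). DESeq2 and edgeR were not used as the main test, since FPKM are not counts. limma 3.58.1 (R 4.3.3, eBayes with trend) was fitted to log2(FPKM + 0.5), within each tissue for diet, over the 9 CON libraries for tissue, and over all 18 for differences in diet effect. Genes had to average 0.5 FPKM over the libraries fitted. The fit was tested on simulated data with independent noise and a capped spread per gene. That test therefore does not show how the fit performs at the spread of these libraries. Groups came from the sample labels. The naming rule covered each member and genes of the 4 lists with an unadjusted p under 0.05 and no overlap. It also covered hormones, ligands, receptors and enzymes whose presence or absence bears on a member. Some listed genes outside the rule, such as *Vasp*, were named as well. The deviations of same-numbered muscle libraries had r = 0.383, 0.177 and 0.184, and those of a differently numbered pair, CON72M and HS3M, had r = 0.180. The labels do not state that the replicate number marks a pair or a batch. The replicate block is given for muscle as an alternative only. The values of 1 listed gene are not reported here. The members and lists were chosen with earlier results of these data known. Alternatives changed the pseudocount, filter, scaling, model and libraries, and voom on recovered fragments, the HSD tissue comparison without HS3W and tissue ratios without CON16L were added after seeing the data. Of the 18 libraries, 15 are listed in the study; CON16L, HS5L and HS5W are not, and they were kept here.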

Additional observations from a re-analysis of the deposited data

Results flagged for a closer look

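In 7 cases the CON and HSD libraries of a gene did not overlap in 2 tissues and moved in opposite directions. The difference between the 2 diet effects was tested for each as a limma interaction over the 18 libraries, and none passed adjustment over all genes. *Agt* was higher in HSD liver and lower in HSD muscle, and the liver effect minus the muscle effect was 2.335 (SE 0.6356, adjusted p = 0.278, limma). *Agtr1a* had the same pattern, at 0.7388 (SE 0.4104, adjusted p = 0.689, limma), and so did *Gna12*, at 1.184 (SE 0.2534, adjusted p = 0.156, limma). *Thop1*, a peptidase that cleaves angiotensin I, was lower in HSD liver and higher in HSD muscle, at -0.4537 (SE 0.1847, adjusted p = 0.568, limma). *Sgk1* was higher in HSD eWAT and lower in HSD muscle, at 1.426 (SE 0.481, adjusted p = 0.441, limma), and this difference was called in 1 of 24 settings, over the 15 listed libraries (adjusted p = 0.0375, limma). *Ctsd* and *Ndrg2* were lower in HSD eWAT and higher in HSD muscle, at -0.9905 (SE 0.4722, adjusted p = 0.634, limma) and -0.9333 (SE 0.4671, adjusted p = 0.652, limma). The 7 cases were among 120 pairs of a listed gene with 2 tissues. Of all genes tested in both tissues, the same pattern was found for 105 of 9104 in liver and muscle (4 of 38 listed genes), 235 of 10488 in eWAT and muscle (3 of 43) and 114 of 9864 in liver and eWAT (0 of 39).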

How the results depend on the processing

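Depth limits *Ace*, *Npr3*, *Agtrap*, *Nr3c2* and *Npr1* in liver, at 0 to 84 fragments a library, and p-values measure the spread of 3 mice a group. Of 406 single-gene diet values under an alternative, 381 kept their direction and side of the threshold, as did 465 of 504 tissue values and 202 of 207 differences in diet effect. The cause of the exceptions was not tested.

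Called members between tissues numbered 4 for eWAT and muscle with median-ratio scaling and 4 for liver and muscle with quantile normalization, and all genes called for liver and eWAT 5189 and 5150. *Nr3c2* turned to 0.17 and 0.31 for liver over eWAT and to -0.52 and -0.68 for eWAT over muscle under these scalings, and its diet effect in eWAT less that in muscle to -0.0027 with median-ratio scaling. Leaving out 1 library gave -0.13 to 0.77 for *Agt* and -0.23 to 0.16 for *Npr2* between liver and eWAT.

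For diet, genes called were 41 in liver, 161 in eWAT and 5 in muscle with all tissues in 1 fit, 926 in liver (1 member, 1 other gene of the 4 lists) and 220 in eWAT with library weights, 35 in liver over the 15 listed libraries, and 7 in muscle with no filter and 66 with voom. The replicate block gave 54 in muscle, raised the muscle genes at an adjusted p under 0.05 from 97 to 286, and changed no call of a member, and the mouse as a random block between tissues or across all libraries changed no call of a member. In liver and eWAT the deviations of same-numbered libraries had r of mixed sign (-0.473, 0.396 and -0.213, and -0.197, 0.0608 and 0.414). Without 1 library the counts were 0 to 1 in liver, 0 to 160 (without HS3W) in eWAT, and 10 (without CON72M) to 61 (without HS2M) in muscle. Library weights turned *Agt*, *Agtrap* and *Npr2* in eWAT to 0.24, -0.081 and 0.26 and *Npr1* and *Npr2* in liver to 0.0054 and 0.20. Quantile normalization turned *Nr3c2* to -0.034 in eWAT and 0.11 in muscle, median-ratio scaling turned *Nr3c2* and *Npr2* in muscle to 0.065 and 0.0077, and the 15 libraries turned *Npr1* in eWAT to -0.16. Leaving out 1 library gave, in eWAT, -0.57 to 0.21 for *Agt*, -0.72 to 0.0083 for *Agtr1a*, -0.12 to 0.28 for *Agtrap*, -0.16 to 0.52 for *Npr1* and -0.31 to 0.32 for *Npr2*, in liver -0.45 to 0.43 for *Npr2*, and in muscle -0.36 to 0.022 for *Npr1*, -0.18 to 0.011 for *Npr2* and -0.11 to 0.058 for *Nr3c2*.

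Differences in diet effect were called, over the 15 libraries, for 2455 genes between liver and eWAT and 1286 between liver and muscle (1 member, *Agt*, in each) and for 170 between eWAT and muscle. Counts were 43 and 2 with median-ratio scaling (liver and eWAT, eWAT and muscle), 53 and 4 without mitochondrial genes (liver and eWAT, liver and muscle) and 19 with a pseudocount of 1 (eWAT and muscle). Without 1 library they were 37 to 544 (without HS5L) between liver and eWAT, 1 to 59 (without HS5L) between liver and muscle and 0 to 145 (without HS5W) between eWAT and muscle, where *Agtr1a* ranged from -0.34 to 0.38.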
